A study of Mus musculus with 6 samples.

Results

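Mature olfactory sensory neurons (OSNs), which detect odours, were compared with the rest of the epithelium they were taken from. The OSNs were sorted by green fluorescence from OMP-GFP mice, a line in which GFP is made under the control of Omp, a gene switched on when an OSN matures. The other population, called here the residual epithelium, was the olfactory epithelium of the same line without its GFP-expressing OSNs. Both populations carried the OMP-GFP allele, the animals were kept under normal laboratory conditions, and the sources used here do not give their age, sex or number. Per the labels, RNA came from about 500000 sorted cells and about 2500000 residual cells. Each population filled 2 arrays, 1 per chip, where chips A and B are Affymetrix mouse designs that carry different probe sets, so the comparison rests on 4 of the 6 arrays of the series. The other 2 arrays held brain without olfactory bulbs of the same line. Brain signals entered the floor, the chip median and the choice of probe set per gene, all described below. They entered no ratio and are otherwise given beside the comparison. With 1 array per population and chip, no difference has a replicate check and no test across samples was possible.

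An OSN carries cilia into the nasal mucus. Odorant receptors in the ciliary membrane activate the olfactory G protein, adenylyl cyclase makes cyclic AMP, and cyclic nucleotide-gated and chloride channels turn it into a current. The axon runs to the olfactory bulb, where it releases glutamate. OSNs are replaced throughout life from basal progenitors through an immature stage, beside sustentacular cells, which support and detoxify the epithelium, Bowman's glands, microvillar cells, and the vessels, connective tissue and immune cells of the lamina propria beneath.

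All probe sets other than the array controls entered, 22626 on chip A and 22511 on chip B. Values are MAS5 signals, a probe set intensity scaled to a common array mean. Signals under the lower quartile of a chip (70.6 on chip A, 79.9 on chip B) were raised to it, the floor, and "at least" stands before any fold that rests on it. A probe set was counted where at least 1 of the 2 populations reached the median of the chip (222 and 243.6). On chip A, 12749 probe sets were counted, of which 12.5% were at least 2-fold higher and 18.8% at least 2-fold lower in OSNs. The shares on chip B were 13.0% and 16.5% of 12746 probe sets. With 1 probe set per gene, 12255 of 18193 genes were counted. Of these, 1570 (12.8%) were higher, 2292 (18.7%) were lower and 8393 lay within 2-fold, with a median log2 ratio of -0.05.

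The filter has a bearing on the direction. Among counted genes, 872 reached the chip median in OSNs alone and 1783 in residual epithelium alone, so the sign of their ratios is fixed by the filter. Of the 9600 genes at or above the median on both arrays, 11.6% were higher and 9.97% were lower in OSNs. Higher genes thus made up 40.7% of the calls over all counted genes and 53.7% where both signals were at or above the median. Counts over gene lists below are given for members with both signals at or above the median, to be read against 11.6% and 9.97%, unless a sentence says that it counts all counted members. The lists were chosen with earlier results of these data known, and their counts are descriptions.

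The spread of a ratio can be judged only within these arrays. The 100 probe sets present on both chips had log2 ratios that were 0.23 higher on chip A than on chip B on average, with an SD of 0.25 and a largest difference of 0.85. Different probe sets of the same gene had a within-gene SD of 0.62. Of 5270 genes with more than 1 counted probe set, 68.4% had all of them on the same side of 0. Neither spread stands for that between animals. A lower ratio in a mixed tissue can come from fewer cells of a type or from less RNA per cell, and these cannot be told apart.

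**Figure D1:**
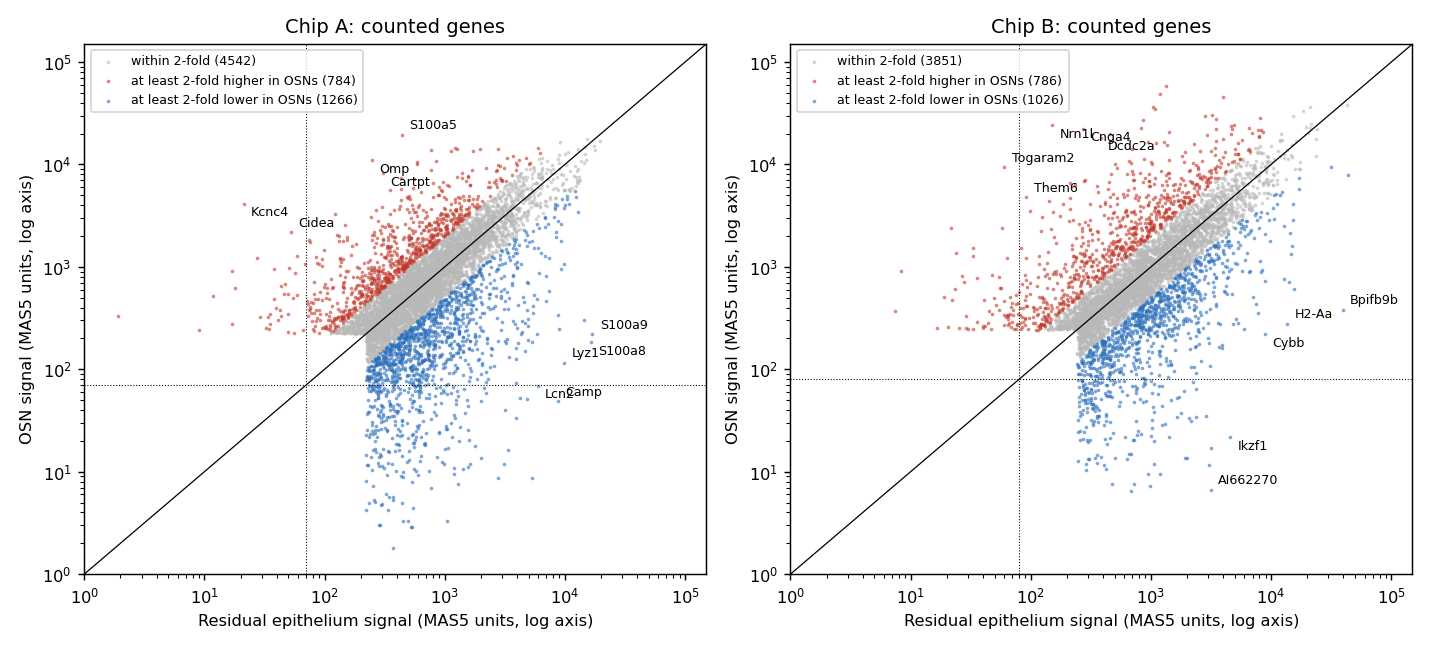
OSN signal against residual epithelium signal on log axes for the counted genes of chip A and chip B, 1 point per gene; dotted lines mark the floor and the solid line marks equal signals. On chip A 784 genes were at least 2-fold higher and 1266 at least 2-fold lower in OSNs, and on chip B 786 and 1026.

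The marker genes of each cell type were read first, as a check of the labels. Omp itself, by which the cells were sorted, measured 11057 in OSNs and 248.8 in residual epithelium, which left a residual signal of 2.25% of that in OSNs. All 5 mature OSN markers were higher in OSNs, from 17.96-fold (Cnga2) to 44.44-fold (Omp) within their chips. Marker sums here and below add signals of both chips where the members lie on both, so their percentages are not ratios within a chip. The sums use signals before the floor and include markers that were not counted. The mature sum holds Omp, Cnga2 and Adcy3 from chip A. Gnal (48746 in OSNs) and Stoml3 (57983), from chip B, weigh most in it. The 5 markers summed to 142299 in OSNs and 4115 in residual epithelium. Their summed residual signal was 2.9% of that in OSNs. Brain had 3829.

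Immature OSN markers did not separate the populations as far. Gap43, a growth cone protein of immature OSNs, had 1685 in OSNs and 2975 in residual epithelium, and Stmn1, which destabilises microtubules, had 8717 and 12573; both lay within 2-fold. Gng8, a G protein gamma subunit of immature OSNs, was 5.46-fold lower in OSNs (1796 against 9811), and Dpysl5 was 2.43-fold lower. The summed OSN signal of the 4 markers was 47.8% of the residual one, and brain had 11577 against 12640 in OSNs. Stmn1 was the largest member of the sum in both populations, so the share gives no level for the immature stage. The 3 progenitor markers on the arrays were lower, all counted through the residual array alone. Neurod1, a transcription factor of late progenitors, had 183.4 in OSNs and 5353 in residual epithelium, and Neurog1, which acts before it, had 10.8 and 1186.

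Markers of sustentacular cells were closer to each other in the 2 populations, and those of glands were not. Cyp2g1, a cytochrome of sustentacular cells, had 3822 in OSNs and 2657 in residual epithelium, with 102.7 in brain. Cbr2, a carbonyl reductase, had 2977 and 6857, and Ermn had 560.6 and 841.2. The sustentacular markers together, with Ermn from chip B and the others from chip A, had 71.1% of their residual level in OSNs. Of the gland markers 2 were counted, both lower, and the 4 on the arrays had 19.6% of their residual level in OSNs. Bpifa1, a secreted protein of glands and airway epithelium, had 3432 in OSNs against 12936 in residual epithelium and 34.6 in brain. Ltf, the gland and granule protein lactoferrin, had 468.0 and 6988. Cyp2g1, Cbr2 and Bpifa1, markers of other cells of the nose, thus had OSN signals far above those of brain, and their part in the ratios below was not tested.

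Most counted blood cell markers had their higher signal in residual epithelium, and most were counted through that array alone, which fixes their sign. Only Ngp, Csf1r and Ms4a2 had both signals at or above the chip median. The 4 neutrophil markers summed to 757.0 in OSNs and 56534 in residual epithelium, with 463.8 in brain. Macrophage markers had 11.4% and B-lineage markers 6.8% of their residual level in OSNs. Alas2 and Slc4a1, the haem synthase and the anion exchanger of red cell precursors, had 3393 and 4264 in residual epithelium and were under the floor in OSNs. Of the mast cell markers 2 were counted, Cpa3, which was 3.60-fold lower, and Ms4a2, which lay within 2-fold, and the 4 on the arrays had 77.4% of their residual level in OSNs. Nkg7, the 1 counted marker of T and NK cells, was 3.42-fold lower, and the 3 on the arrays had 46.6%. The mast cell sum was only 460.0 in OSNs and 594.3 in residual epithelium, with 289.4 in brain. That of T and NK cells was 214.6 and 460.9, with 190.5 in brain. Sums this low give no level for these cells. All 4 horizontal basal cell markers were lower but were counted through the residual array alone. Of the 4 stromal markers, all lower, Col1a2 and Dcn had both signals at or above the median. Of the 4 microvillar cell markers 3 were lower and Pou2f3 lay within 2-fold, and only Ascl3 had both signals at or above the median. For endothelium, ensheathing glia and muscle 1 marker each was counted, all within 2-fold, and none of the 3 cartilage and bone markers on the arrays was counted.

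Of the markers of respiratory ciliated cells 3 were counted, and only Ccdc39 had both signals at or above the chip median. The signs of Foxj1 and Tekt1, counted through the OSN array alone, are fixed by the filter. Foxj1, the master regulator of motile cilia, had 987.7 in OSNs and 187.4 in residual epithelium, Ccdc39 had 3574 and 621.6, and Tekt1 had 562.0 and 143.6. Dnah5, an outer arm dynein of beating cilia, was not counted, with 133.1 and 117.9.

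**Figure D2:**
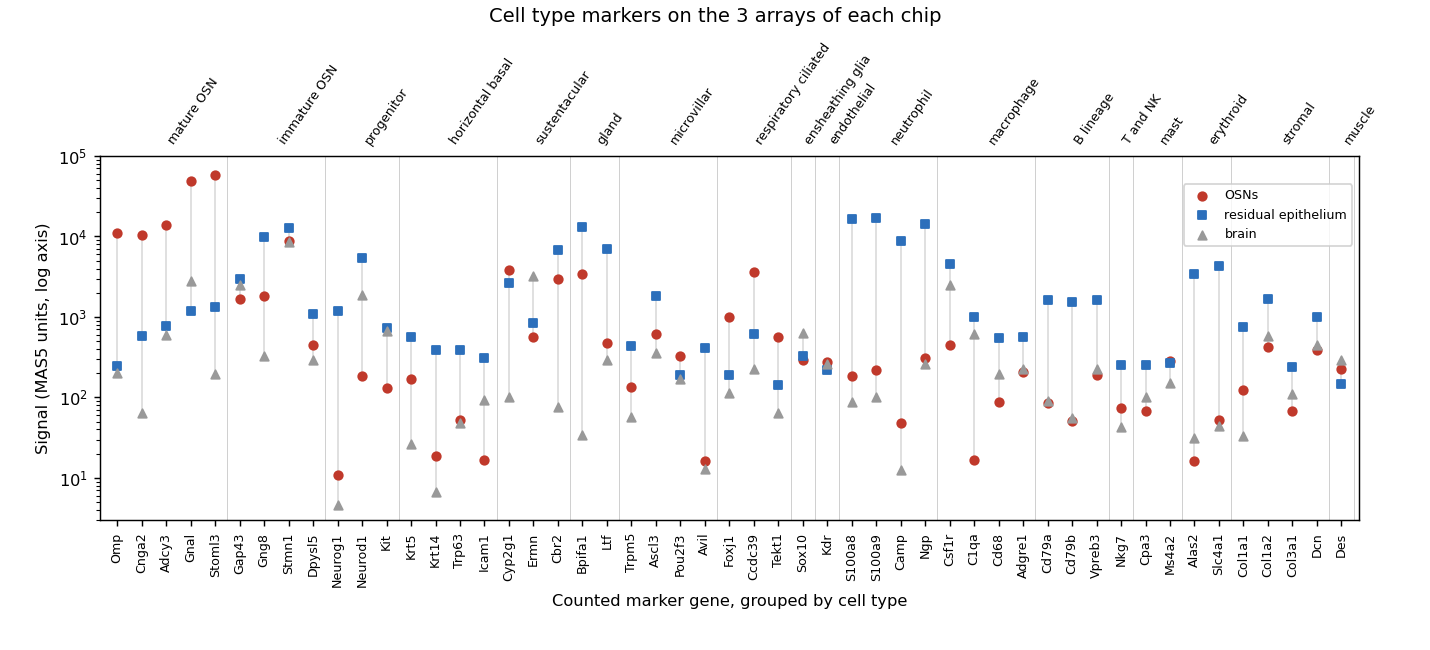
Signals of the counted cell type markers in OSNs (circles), residual epithelium (squares) and brain (triangles), on a log axis; each marker is a column and the markers are grouped by cell type. The mature OSN markers and the 3 counted respiratory ciliated markers were higher in OSNs, while the neutrophil, B-lineage and erythroid markers were higher in residual epithelium.

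Among the genes furthest toward OSNs on chip B, Nrn1l, a relative of neuritin, had 24086 in OSNs against 150.8 in residual epithelium and 149.9 in brain. Togaram2, a microtubule-binding protein of the TOG family, had 9430 in OSNs and was under the floor in the other populations, which makes it at least 118-fold higher than in residual epithelium. Cnga4, a channel subunit, had 22366 against 270.1, and Dcdc2a, a doublecortin-domain protein of cilia, had 18191 against 382.9. The other counted Dcdc2a probe set had a log2 ratio of 0.44 only. On chip A the widest ratio was that of Kcnc4, a fast-inactivating potassium channel, with 4127 against 21.3, at least 58.5-fold. Cidea, a lipid droplet protein of brown fat, had 2171 against 52.4 and was at least 30.8-fold higher. Drd2, a dopamine receptor, had 1839 against 73.5, and Dnajb13, a radial spoke protein of motile cilia, had 3251 against 121.9.

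At the other end of chip A stood granule proteins of neutrophils. Camp, which yields an antimicrobial peptide, had 48.7 in OSNs and 8745 in residual epithelium, and S100a8 and S100a9, the subunits of calprotectin, had 182.9 against 16475 and 219.3 against 16940. Mki67, the proliferation antigen, had 73.0 against 3947. On chip B, Bpifb9b, a secreted protein of the same family as Bpifa1, had 381.1 against 39508, the largest signal difference toward residual epithelium on that chip. Ikzf1, a lymphoid transcription factor, had 21.6 against 4576. Prmt8, an arginine methylase, stood apart from these in that brain also had a high signal, 3293, beside 31.5 in OSNs and 2137 in residual epithelium.

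Some genes were measured by several probe sets, which gives a check within the arrays. Among 2094 genes with at least 3 counted probe sets, Stom, the membrane protein stomatin, had the highest median log2 ratio, 5.21 over 5 probe sets that ran from 3.55 to 5.40. Its OSN signals lay between 12856 and 15589 on all 5, and its residual signals between 305.9 and 1227. Cfap69, a protein needed for olfactory cilia to respond at their normal speed, had signals of 10808, 8107 and 7340 in OSNs against 660.8, 315.2 and 145.0. Spef2, of the central apparatus of motile cilia, ran from 3.98 to 5.50 on the log2 scale. Toward the residual side, Cd24a, a surface protein of progenitors and blood cells, led with a median of -5.17 and a range from -5.67 to -4.79. Rrm2, which makes deoxynucleotides, and Cdca8, a mitotic passenger protein, followed at -4.54 each.

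The odour signalling list held 34 genes. Of 24 members with both signals at or above the median, 18 were higher and 3 were lower in OSNs, with a median log2 ratio of 2.62. For the 19 counted members that were at least 2-fold higher, the residual signal was between 1.21% and 43.9% of the OSN signal. The 3 lower members are signalling proteins shared with other cells, but some higher members are shared too. Gnb1 and Gnao1, G protein subunits with brain signals of 7053 and 3213, had log2 ratios of 1.27 and 1.28. Whether sharing goes with the side was not tested. Gnas, the stimulatory G protein alpha subunit of most tissues, had 485.7 in OSNs and 5866 in residual epithelium, Gnai2, an inhibitory one, had 412.5 and 2602, and Grk3, a receptor kinase reported to act on odorant receptors, had 370.2 and 1202.

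The list of cyclic nucleotide enzymes and anchors was split. Pde7b, a cyclic AMP phosphodiesterase, had 36353 in OSNs and 1033 in residual epithelium, and its 3 probe sets ran from 4.66 to 5.75 on the log2 scale. Pde4d was 7.06-fold and Pde1c, the phosphodiesterase of olfactory cilia, 4.89-fold higher. Pde2a, found in a separate class of OSNs that carry a guanylyl cyclase, was 7.07-fold lower (1148 against 8121), and Adcy7, a cyclase of blood cells, was under the floor in OSNs. Of 31 members with both signals at or above the median, 7 were higher and 7 were lower.

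Voltage-gated sodium and calcium channels were mostly on the OSN side. Of 12 sodium and calcium channel genes with both signals at or above the median, 8 were higher in OSNs, 0 were lower, and the median log2 ratio was 1.44. Scn4b, a sodium channel beta subunit, had 16560 in OSNs and 953.2 in residual epithelium. Scn9a, the pore subunit Nav1.7 known from OSN axons and pain fibres, had 9140 against 3388, with 209.6 in brain, and its 5 probe sets ran from 1.43 to 2.36. Scn8a, another pore subunit, had 1374 in OSNs and was under the floor in residual epithelium, at least 17.2-fold higher. Its 3 counted probe sets ran from 2.45 to 4.10 on the log2 scale, and the lowest of them stood for the gene with the floor at percentile 10. Cacna1d and Cacna1h, pore subunits of L-type and T-type calcium channels, were 4.87-fold and 3.66-fold higher. Cacna1e, an R-type subunit, had 54.3 in OSNs and 456.3 in residual epithelium.

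Of 61 listed potassium channel genes, 54 were on the arrays and 32 were counted, 10 of them through the OSN array alone and 6 through the residual array alone. Of the 16 with both signals at or above the median, 6 were higher and 2 were lower. Kcna2 was 8.15-fold higher, Kcns3, a silent subunit that modifies others, 7.88-fold, Kcna5 6.85-fold and Kcnab2, an auxiliary beta subunit, 7.37-fold. Kcnh3, of the EAG family, had 6311 against 1361. Kcnq3, of the M-current, had 49.7 in OSNs and 1462 in residual epithelium, at least 18.3-fold lower, though its other counted probe set had a log2 ratio of 0.26. The probe sets of Kcna2 and Kcna6 likewise included 1 near 0 (-0.42 and -0.17).

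Transporters that set the ion gradients were also measured. Atp1b1, a beta subunit of the sodium pump, had 12040 in OSNs and 3706 in residual epithelium. Slc4a4, a sodium bicarbonate cotransporter, had 6985 against 727.9, and its 4 probe sets ran from 1.66 to 3.26. Slc12a2, the chloride loader of OSNs, lay within 2-fold with 6204 against 4379. Ano1, a chloride channel of gland and supporting cells, had 47.5 in OSNs and 727.5 in residual epithelium, and Aqp1, a water channel, had 110.0 and 2054.

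The machinery of transmitter release lay on the OSN side. Of 49 genes of vesicle release with both signals at or above the median, 24 were higher in OSNs, 1 was lower, and the median was 0.99. Dnm1, the dynamin that frees synaptic vesicles, had 4963 in OSNs against 507.9 in residual epithelium and 11318 in brain. Syt1, the calcium sensor of release, had 22027, 3458 and 23792, and Snap25, a SNARE, had 5338, 632.2 and 10565. Syn2, a synapsin, was 6.77-fold and Unc13c, a priming factor, 6.47-fold higher than in residual epithelium. The lower member was Vamp8, a SNARE of secretory and immune cells, with 234.9 in OSNs and 1316 in residual epithelium.

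Peptide and granule genes were more often higher than lower in OSNs. Cartpt, a neuropeptide precursor, had 8225 in OSNs and 307.9 in residual epithelium, Chga, a granule protein, had 10763 against 840.3, and Scg3 and Scg5 were 5.65-fold and 4.48-fold higher. Scg2, a granin, had 365.1 against 1673. Nnat, neuronatin, had 101.8 against 1272 and was counted through the residual array alone, which fixes its sign. Of the 10 with both signals at or above the median, 5 were higher and 1 was lower.

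Surface proteins of axons came next. Of 41 axon guidance and adhesion genes with both signals at or above the median, 13 were higher and 1 was lower in OSNs. Plxna3, a semaphorin receptor, was 7.58-fold higher, Efna3, an ephrin, had 10455 against 1878, and Epha5, an ephrin receptor, was 6.34-fold higher. Kirrel and Kirrel3, adhesion proteins of the same family, were 6.84-fold and 3.73-fold higher. Alcam, an adhesion protein of growing axons, was the lower member, with 334.2 against 2321 and 5 probe sets between -2.80 and -1.17. Among 15 cadherins, 8 were higher and 2 were lower. Clstn2, a calsyntenin, had 23609 in OSNs against 4656 and 4048 in residual epithelium and brain, Pcdh8 had 18916, 7883 and 1535, and Cdh1, the epithelial cadherin, had 236.9, 952.6 and 64.7.

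Cilia are built by motors that also carry axonal cargo. Of 38 microtubule motor genes with both signals at or above the median, 12 were higher, 1 was lower and 25 lay within 2-fold. Kif9 and Kif27, kinesins of motile cilia, had 2607 against 334.7 and 2626 against 452.5. Subunits of the kinesin-2 motor that enters cilia were higher, with Kif3a at 2.14-fold, Kif3b at 2.18-fold and its accessory subunit Kifap3 at 2.38-fold, and the retrograde ciliary dynein Dync2h1 was 2.06-fold higher. Rab28 and Arl3, small G proteins of ciliary traffic, were 3.53-fold and 2.15-fold higher. Dzip1l, of the ciliary transition zone, had 6252 against 1525. The list of septin, centriole and basal body genes was split: 32 had both signals at or above the median, 5 of these were higher and 5 lower, and their median was 0.02. Its 3 lowest counted members were needed for centriole duplication. Plk4, the kinase that starts it, had 250.8 in OSNs and 3968 in residual epithelium, Stil had 72.5 and 1069, and Cenpj had 381.3 and 2287.

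Transcription factors were read for the same programmes. Rfx4, a member of the RFX family that regulates ciliary genes, had 3431 in OSNs against 154.2 in residual epithelium and 588.1 in brain, and Rfx2 had 1124, 289.0 and 178.2. Rfx3 lay within 2-fold (3980 against 2782), as did Rfx1 and Rfx5, with log2 ratios of -0.50 and -0.68. Of the EBF factors, which control many OSN genes, Ebf4 was 4.66-fold higher (10344 against 2221), while Ebf1, Ebf2 and Ebf3 had log2 ratios of 0.07, 0.29 and 0.22. Lhx2 and Emx2, needed for odorant receptor expression, lay within 2-fold at -0.28 and -0.60. Factors of immature neurons were lower, with Nhlh2 at 883.0 against 8212 and Sox11 at 7967 against 43377. All 6 counted Sox11 probe sets lay between -3.23 and -2.16. St18, a zinc finger factor, had 104.4 against 2153.

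The promoters of the genes were searched for short motifs bound by these families. The windows ran from 250 bases before to 50 bases after the first listed RefSeq start (GRCm38.p6), on both strands. Of 9400 counted protein-coding genes with a window, 373 were at least 4-fold higher and 758 at least 4-fold lower in OSNs. The RFX core GTTGCC was in 13.2% of all windows, 21.2% of those of the higher genes and 10.6% of those of the lower genes. The EBF core CCCNNGGG was at nearly the same share in each, 18.3%, 18.2% and 18.2%. The bin of log2 ratios above 4 held 42 promoters, 28.6% of them with this core. The cell cycle homology element TTTGAA was in 11.9%, 10.7% and 19.4%, and the ETS core GAGGAAGT of blood cell promoters in 2.95%, 1.61% and 6.73%. Among lower genes with both signals at or above the chip median the ETS share was 3.76%, and that of the RFX core 8.07%. A match is a description of letters and not a bound site.

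Stretches of 150 bases upstream of the start are shown for genes with wide ratios whose stretch holds each motif, with the motif in capitals on the strand where it reads. For the RFX core these are the uncharacterised 1700012B09Rik, at chr9:14771031-14771180 (minus strand), with 19882 in OSNs and 460.5 in residual epithelium, Stmnd1, a stathmin-domain protein, at chr13:46273571-46273720 (plus strand), with 7011 and 281.5, and Gm11992, at chr11:9048442-9048591 (plus strand), with 4732 and 212.9. In Stmnd1 the core reads on the other strand and appears as its complement.
1700012B09Rik: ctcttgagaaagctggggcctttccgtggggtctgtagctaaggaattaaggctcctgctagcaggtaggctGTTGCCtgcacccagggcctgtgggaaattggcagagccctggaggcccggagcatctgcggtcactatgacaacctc
Stmnd1: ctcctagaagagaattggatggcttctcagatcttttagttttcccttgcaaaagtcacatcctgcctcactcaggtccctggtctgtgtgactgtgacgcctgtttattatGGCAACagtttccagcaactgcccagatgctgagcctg
Gm11992: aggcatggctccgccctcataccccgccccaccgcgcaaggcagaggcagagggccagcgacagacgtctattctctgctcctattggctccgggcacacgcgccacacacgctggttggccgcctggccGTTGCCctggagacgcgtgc

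For the EBF core they are Drd2, at chr9:49340253-49340402 (plus strand), and Ttc9, at chr12:81631099-81631248 (plus strand), which had 10209 in OSNs and 499.3 in residual epithelium.
Drd2: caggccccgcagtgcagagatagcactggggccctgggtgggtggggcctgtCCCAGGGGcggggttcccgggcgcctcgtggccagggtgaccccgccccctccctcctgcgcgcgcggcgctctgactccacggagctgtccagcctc
Ttc9: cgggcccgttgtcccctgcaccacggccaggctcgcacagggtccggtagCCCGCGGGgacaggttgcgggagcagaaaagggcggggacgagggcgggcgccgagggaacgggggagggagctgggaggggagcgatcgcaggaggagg

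For the cell cycle homology element they are Kif22, a chromosome-arm kinesin, at chr7:127042421-127042570 (minus strand), and Fen1, the flap endonuclease of DNA replication, at chr19:10204394-10204543 (minus strand). These were chosen among the genes of cell division and had 157.0 and 387.9 in OSNs against 2471 and 3330 in residual epithelium. Both matches read on the other strand.
Kif22: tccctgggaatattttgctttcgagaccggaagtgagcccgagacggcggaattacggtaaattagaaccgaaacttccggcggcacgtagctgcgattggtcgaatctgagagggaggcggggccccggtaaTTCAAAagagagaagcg
Fen1: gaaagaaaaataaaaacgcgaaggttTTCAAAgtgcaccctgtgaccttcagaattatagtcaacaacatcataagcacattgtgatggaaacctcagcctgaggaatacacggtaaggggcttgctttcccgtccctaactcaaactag

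For the ETS core they are Elane, the elastase of neutrophil granules, at chr10:79886162-79886311 (plus strand), and Il18rap, an interleukin receptor subunit, at chr1:40515212-40515361 (plus strand). Both were under the floor in OSNs, with 1248 and 1321 in residual epithelium.
Elane: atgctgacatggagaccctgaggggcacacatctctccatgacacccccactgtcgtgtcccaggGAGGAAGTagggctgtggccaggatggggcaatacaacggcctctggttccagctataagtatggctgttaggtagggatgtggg
Il18rap: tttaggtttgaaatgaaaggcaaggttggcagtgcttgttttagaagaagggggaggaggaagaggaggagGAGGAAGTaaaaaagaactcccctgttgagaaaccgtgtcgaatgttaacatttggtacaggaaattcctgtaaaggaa

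Base composition differed as well. The median ratio of observed to expected CpG was 0.765 over all windows, 0.636 for the higher and 0.582 for the lower genes. Windows with a ratio under 0.4 made up 16.3%, 27.6% and 38.4%. Promoters poor in CpG were thus more frequent at both ends than in the middle. The TATA motif TATAAA was in 7.42%, 6.97% and 12.8%. Motif shares also depend on base composition, and its part in them was not tested.

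**Figure D3:**
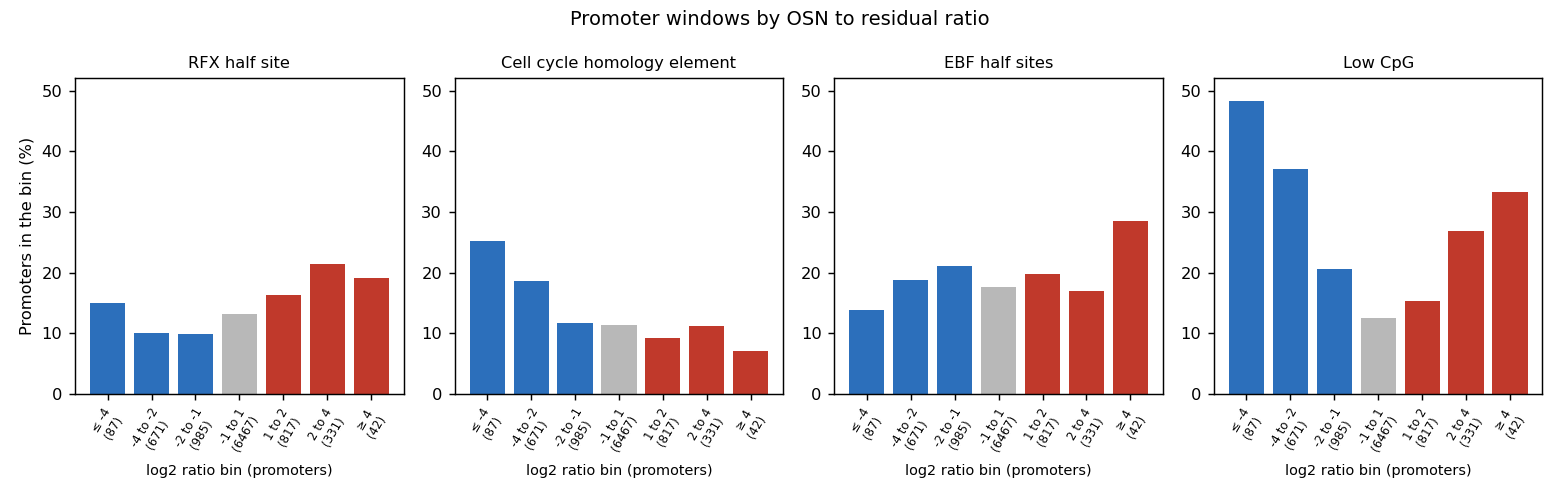
Share of promoter windows with the RFX core, the cell cycle homology element, the EBF core, or an observed to expected CpG ratio under 0.4, by bin of log2 ratio of OSNs to residual epithelium; the number of promoters in each bin is in parentheses. The RFX share was 10.6% over genes at least 4-fold lower and 21.2% over those at least 4-fold higher, and low-CpG promoters were more frequent in both outer sets than in all windows.

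Cell division lay on the residual side. Of 23 genes of DNA replication and repair with both signals at or above the median, 12 were lower in OSNs, 1 was higher and the median was -1.18. Mcm5, a helicase subunit, had 350.9 in OSNs and 7821 in residual epithelium on chip B, and 47.2 and 1050 on chip A, while another chip B probe set had 117.2 and 278.0. Mcm7 had 706.9 and 4820, and Fen1 was 8.58-fold lower. The higher member was Xrcc6, the Ku70 end-joining protein, with 1322 in OSNs and 620.6 in residual epithelium. Of all 20 counted genes of the mitotic spindle and checkpoint, 14 were counted through the residual array alone. The 6 with both signals at or above the median held 3 lower members, among them Cdc20, an activator of anaphase, with 263.3 against 1490. Tpx2 and Kif24 lay within 2-fold at log2 ratios of 0.71 and 0.62, though another counted Tpx2 probe set had -3.28.

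Nuclear proteins differed member by member. Lbr, the lamin B receptor that holds heterochromatin at the nuclear edge and is known to be lost in OSNs, had 573.0 in OSNs and 3302 in residual epithelium. Hmgb2, a chromatin protein of dividing cells, was 6.90-fold lower, and H2az2 and H2ax, histone variants, were 3.57-fold and 4.13-fold lower. H2bc21, a histone H2B variant studied in OSNs, had 29421 in OSNs against 15170 in residual epithelium and 354.5 in brain, just within 2-fold. Its other counted probe set had a log2 ratio of 1.40. Hdac9, a histone deacetylase, was 5.96-fold and Cbx6, a Polycomb reader, 3.63-fold higher. Uhrf1, which copies DNA methylation at replication, was under the floor in OSNs, with 933.4 in residual epithelium.

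Some related genes lay on opposite sides of 0. The 14 couples named here were chosen for this after their values were seen, so their opposite signs are no finding. Gnal, the olfactory alpha subunit, and Gnas had log2 ratios of 5.36 and -3.59. Reep1 and Reep5, membrane-shaping proteins, had 3.64 and -2.67, and Snap25 and Snap23 had 3.08 and -2.37 or lower. Pde7b was 35.2-fold higher and Pde7a 3.99-fold lower, and Syngr1 and Syngr2, vesicle proteins, had 2.42 and -2.09. Ezh1 and Ezh2, the histone H3 lysine methylases of Polycomb, had 0.72 and -2.60, Dnmt3a and Dnmt1, DNA methylases, had 1.23 and -1.14, and Hdac11 and Hdac2 had 2.02 and -1.56. Kif5a and Kif5c, kinesin-1 heavy chains, had 1.28 and -1.09, and Pfn2 and Pfn1, profilins, had 1.34 and -1.22. Fxyd2 and Fxyd3, sodium pump regulators, had 2.54 and -3.09, Rgs7 and Rgs2 had 1.92 and -4.49, Sun1 and Sun2 had 1.09 and -1.97, and Vamp2 and Vamp8 had 1.16 and -2.49.

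**Figure D4:**
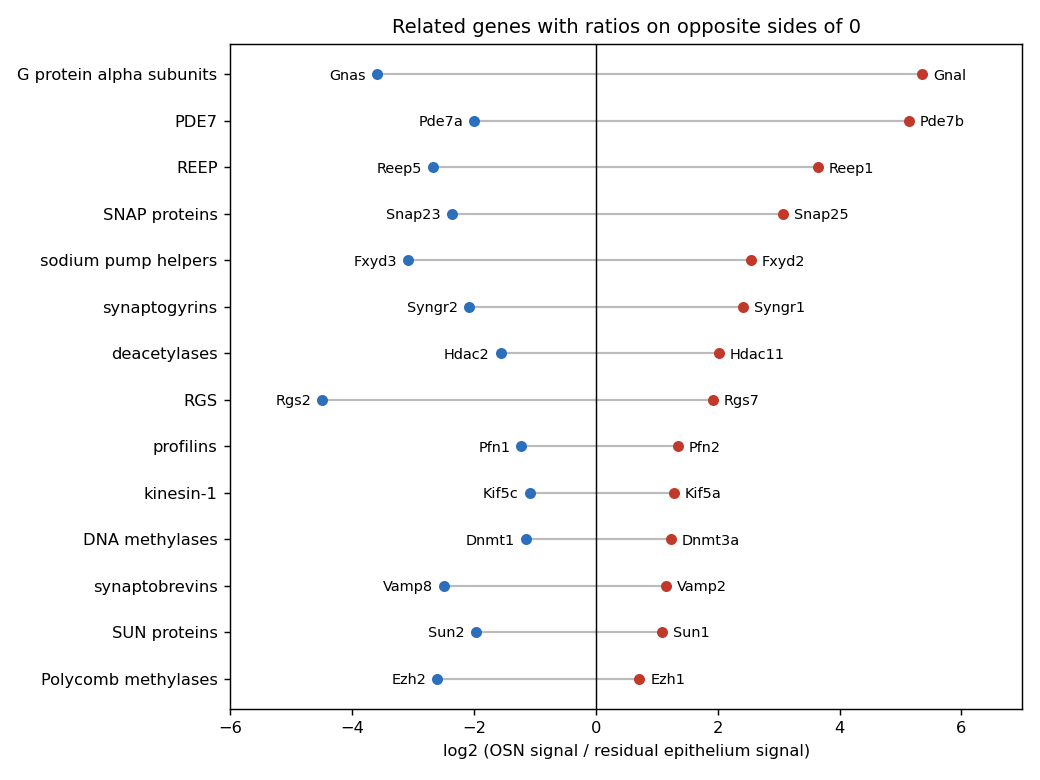
Log2 ratio of OSN to residual epithelium signal for 14 couples of related genes, red for the member that was higher in OSNs and blue for its relative; a line joins the members. The couples were chosen for lying on opposite sides of 0, and the widest gap is between Gnal (5.36) and Gnas (-3.59).

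Genes of mitochondrial metabolism lay within 2-fold about as often as all genes. Of 46 mitochondrial genes with both signals at or above the median, 8 were higher and 3 were lower, with a median log2 ratio of 0.42, and 35 lay within 2-fold, against 78.5% of all genes with both signals at or above the median. Got1 and Mdh1, the cytosolic enzymes of the malate-aspartate shuttle, were 5.78-fold and 2.33-fold higher. Ppargc1b, a coactivator of mitochondrial genes, had 701.8 against 249.0, and Ppargc1a had 837.0 against 133.2. Ckb, brain creatine kinase, had 14022 in OSNs against 1977 in residual epithelium and 12945 in brain. Pgam1, a glycolytic mutase, was 3.63-fold higher. The glycolysis list, which holds Ckb, Pgam1 and the lactate genes below, had members on both sides. Its median log2 ratio was 0.38 over all counted members and -0.23 on chip B alone. Ldha, which makes lactate, had 543.9 against 2373, while Ldhb lay within 2-fold with 7408 against 6261. Slc16a1, a lactate carrier, had 33.5 against 1214, at least 17.2-fold lower, and Slc2a3, a glucose transporter, was 6.26-fold lower. Acsl6, which activates long fatty acids, had 8889 against 767.5, and Fasn, fatty acid synthase, was at least 11.6-fold lower. Slc16a1, Slc2a3 and Fasn were counted through the residual array alone and Ppargc1a through the OSN array alone, which fixes their signs.

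Defence against oxidants and foreign compounds was not uniform. Nfe2l2, the transcription factor of the oxidant response, had 4731 in OSNs against 1345 in residual epithelium and 305.9 in brain. Of its known targets, Nqo1, a quinone reductase, was 9.35-fold higher (3560 against 380.9), Srxn1 6.46-fold and Hmox1, haem oxygenase, 4.53-fold. Srxn1 and Hmox1 were counted through the OSN array alone, which fixes their sign. Hmox1 had a log2 ratio of 1.26 with the floor at percentile 40. Gclc and Gclm, the subunits of the enzyme that begins glutathione synthesis and also targets, were 2.53-fold and 2.20-fold lower. The 4 probe sets of Srxn1 ran from 0.08 to 2.69. Gpx1, a glutathione peroxidase, had 582.9 against 7384, and Cat, catalase, counted through the residual array alone, had 86.3 against 793.2. Txnrd1 and Gsr, of the same antioxidant list, lay within 2-fold at log2 ratios of 0.65 and -0.65. The median over all counted members of that list was -0.02. Sult1d1, a sulfotransferase, had 6879 in OSNs against 1507 in residual epithelium and 47.3 in brain, and Abcc1, an export pump, had 4720, 499.3 and 338.5.

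Protein quality control differed little. Of 32 genes of the endoplasmic reticulum stress response, all with both signals at or above the median, 30 lay within 2-fold and 2 were higher, Dnajb9, a chaperone partner, at 2.85-fold and Trib3, a pseudokinase, at 2.76-fold. Atf5, the factor tied to odorant receptor choice, had 12836 in OSNs against 6237 in residual epithelium and 407.7 in brain. Of 35 proteasome genes with both signals at or above the median, 34 lay within 2-fold, and over all 38 counted members 4 were lower. These were the immune forms, Psmb8, Psmb9 and Psmb10, and the activator Psme1, and only Psme1 had both signals at or above the median. All 4 also belong to the antigen-presenting list, so the 2 lists overlap. In that list, 7 of 9 members with both signals at or above the median were lower, Psme1 among them, and 0 were higher. B2m, the light chain of class I molecules, had 944.7 in OSNs and 9281 in residual epithelium, H2-D1, a heavy chain, had 223.5 and 5830, and H2-Aa, of class II, had 279.1 and 13628. Tapbp, of the peptide-loading complex, lay within 2-fold.

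Some retinoid genes differed widely between the populations. Crabp1 and Crabp2, which bind retinoic acid in the cell, had 192.1 against 4890 and 27.2 against 1329. Aldh1a1, which makes retinoic acid, was under the floor in OSNs, with 612.3 in residual epithelium. Crabp1, Crabp2 and Aldh1a1 were counted through the residual array alone, which fixes their sign. The retinoid and steroid list had a median log2 ratio of 0.17 over members with both signals at or above the chip median. Cyp26b1, which degrades it, had 1364 against 278.7, and Rarg, a receptor for it, had 2520 against 705.0. Notch pathway genes were read in the same way. Dner, a Notch ligand of neurons, had 3172 against 707.1 and Jag1, another ligand, had 3459 against 1317. The receptors Notch1 and Notch2 had 183.5 against 642.1 and 110.6 against 840.4. Both receptors were counted through the residual array alone, which fixes their sign. The Notch and Wnt list had a median log2 ratio of 0.07 over members with both signals at or above the chip median. Hes6, a factor of neuronal progenitors, had 409.6 against 2294.

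Epithelial and connective tissue lists followed. Of 24 junction and keratin genes with both signals at or above the median, 0 were higher and 9 were lower, with a median of -0.17. The median over all counted members was -1.33, and it turned to 0.016 with the filter at percentile 75. Krt18, a keratin of simple epithelia, was 5.13-fold lower, while Cldn9, a claudin, had 13217 in OSNs against 7677 in residual epithelium and 13.7 in brain. Of 24 sustentacular, gland and microvillar genes, 13 were lower and 2 were higher, Sult1d1 and Muc2, a mucin, at 2.64-fold. Of 23 matrix and integrin genes, 7 were lower and 2 were higher. Of 19 leukocyte receptor genes with both signals at or above the median, 10 were lower and 0 were higher, and another 43 were counted through the residual array alone. In the granule and red cell list, Hdc, histidine decarboxylase, was the 1 higher member of those with both signals at or above the median, with 1195 in OSNs against 358.4 in residual epithelium and 18.3 in brain, and both its probe sets were higher. Ifit1 and Ifit2, interferon-induced proteins, were 5.35-fold and 5.46-fold higher in OSNs, and Isg20 and Rsad2, of the same response, were at least 20.3-fold and 4.74-fold lower. Ifit1 and Ifit2 were counted through the OSN array alone and Isg20 through the residual array alone, which fixes their signs. The complement and interferon list had a median log2 ratio of -0.91 over all counted members.

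The remaining lists are given by their counts, to be read against the 78.5% of genes with both signals at or above the median that lay within 2-fold. Of 40 translation factors with both signals at or above the median, 34 lay within 2-fold, and so did 40 of 48 splicing and RNA-binding genes, 24 of 26 autophagy genes, 33 of 38 cytosolic chaperones and 10 of 11 clock genes. The Rab and membrane traffic list had 12 of 47 higher and 3 lower, and the vacuolar proton pump 4 of 17 higher and 2 lower. Lysosomal enzymes had 2 of 27 higher and 9 lower, actin regulators 4 of 43 and 9, and histones and nuclear lamina genes 1 of 34 and 9. The list of nuclear factors of odorant receptor choice had 2 of 32 higher and 10 lower, with a median of -0.27.

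**Figure D5:**
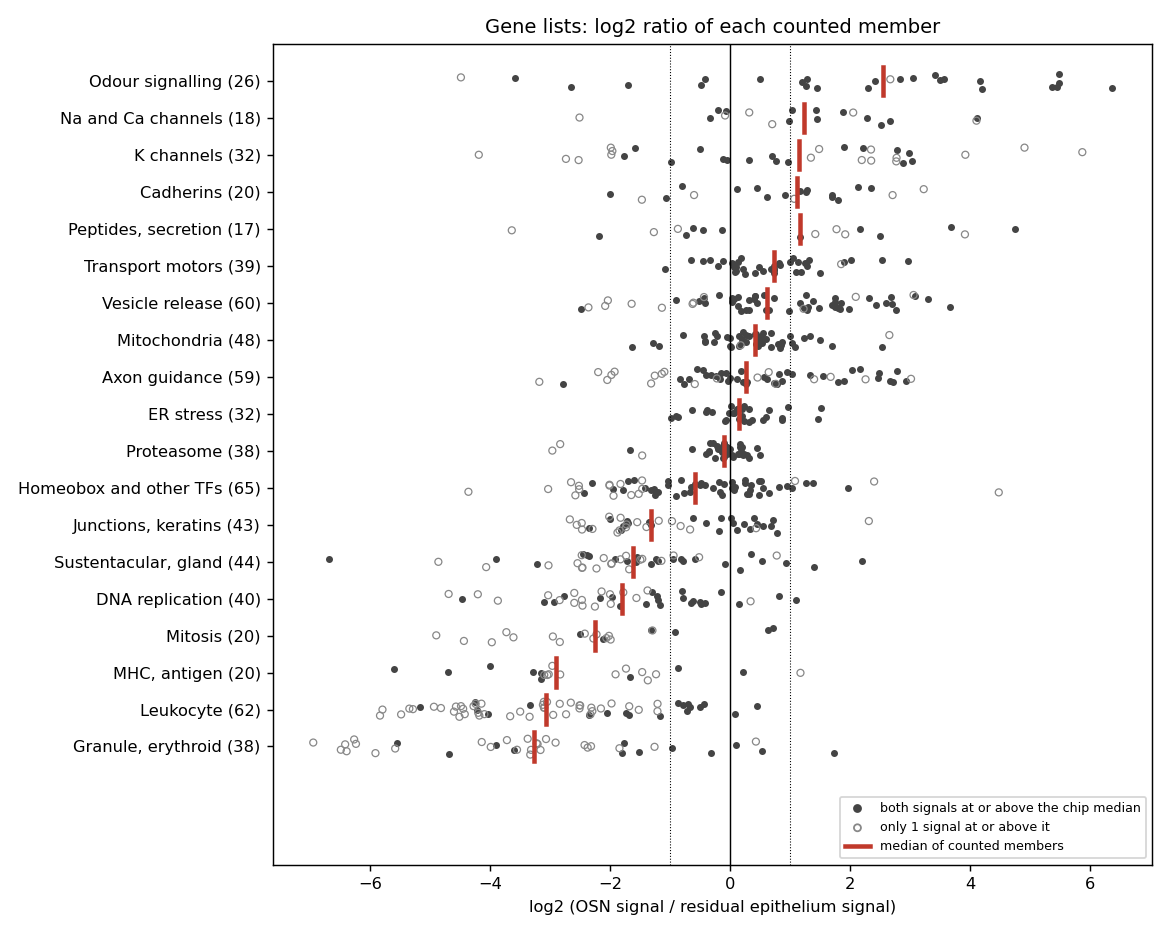
Log2 ratio of OSN to residual epithelium signal for each counted member of 19 gene lists; filled points had both signals at or above the chip median, open points only 1, red bars are medians over counted members and dotted lines mark 2-fold. The medians over counted members ran from 2.54 for odour signalling to -3.28 for the granule and red cell list.

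Probe sets of the same gene disagreed in places. In 47 genes 1 counted probe set was at least 2-fold higher and another at least 2-fold lower. In Tbc1d4, a Rab regulator of glucose transport, the gap passed 4-fold in each direction on the same chip, with 352.6 against 75.4 on 1 probe set (1455903_at) and 136.7 against 568.9 on another (1435292_at). Klf3, Kcnma1, Ets2 and Pclaf were also among the 47, and their values rest on the probe set chosen. Pclaf, a replication factor, had 394.6 against 2545 on its main probe set and a log2 ratio of 1.95 on another.

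Probe sets without a gene name were counted in the same way. On chip A there were 575, of which 69 were at least 2-fold higher and 135 lower, 12% and 23.5% of them beside 12.5% and 18.8% of all counted probe sets. On chip B there were 3432, of which 368 were higher and 474 lower, 10.7% and 13.8% of them beside 13.0% and 16.5%. Probe set 1454386_at had 4596 in OSNs against 92.1 in residual epithelium and 75.6 in brain, and 1449846_at had 87.0, 3814 and 86.0.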

How the data were processed

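Gene expression was measured in sorted OSNs, residual epithelium and brain of OMP-GFP mice on 1 array each of chips A and B. The authors deposited 1 linear intensity per probe set, made with MAS5 per the submitters' processing notes, which name it for all arrays except the chip A brain array. Scaling target and background settings were not stated. The trimmed mean lay near 500 on every array, and such scaling lowers all other signals where a few transcripts dominate. For arrays, their number limits the precision.

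Symbols came from the platform annotation, with 34837 of 45137 probe sets matched by Entrez identifier to the GRCm38.p6 RefSeq table. 35041 probe sets had 1 symbol, 936 several and 9160 none. Genes were named from the first kind only. Log2 ratios were taken within a chip after the floor at percentile 25, and each gene was represented by 1 probe set, that of highest percentile in mean log2 signal. The calculation was tested on simulated data. The members and the 59 gene lists were chosen with earlier results of these data known. Named genes were the 15 highest and lowest ratios and the 10 largest signal differences of each chip, the 10 widest medians over at least 3 probe sets, discordant genes, list extremes and defining members, and markers. Other genes were named after their values were seen. Alternatives were floors, a pseudocount, filters, scalings, the median over probe sets, single chips and a 4-fold threshold. Promoter windows came from RefSeq (83.7% of the counted protein-coding genes used had one), and genes of 1 chromosome were not used. Calculations used pandas 2.3.3 with numpy 2.4.6 under Python 3.11.15, and plots matplotlib 3.10.9.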

Additional observations from a re-analysis of the deposited data

How the results depend on the processing

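Counts moved with the filter, the chip and the threshold. With the filter at percentile 75, 1226 probe sets were lower on chip A, 1088 were higher and 1130 lower on chip B, and 1385 genes were lower. With both signals at or above the chip median, 1002 probe sets were higher and 817 lower on chip A, 932 and 829 on chip B, and 957 genes were lower. From chip A alone 977 genes were higher and 1440 lower, and from chip B alone 865 and 1140. At 4-fold, 415 probe sets were higher and 1038 lower on chip A, 494 and 702 on chip B, and 491 and 974 genes. The other 53 of 72 alternative counts stayed within 1.5 times. Other scalings put the higher share of calls between 38.2% and 44.1%. Of 758 alternative list medians, 30 over 19 lists changed sign, 26 of them from a main median under 0.5 in size. The other 4 started further from 0, and the cause was not tested: junctions and keratins (0.016, filter at percentile 75), vessels and glia (0.085, filter on the mean), bone, cartilage and muscle (0.13, quantile normalization) and calcium handling (-0.051, chip A alone). Of 24 alternative promoter shares, 5 lay outside the 95% binomial interval, which covers counting error only. Of 2129 alternative values of named genes, 160 moved by more than the spread between the shared probe sets and 1 changed sign, Ebf1, from 0.07 to -0.30 with quantile normalization. No paired analysis was possible because no comparison had more than 1 array per population and chip. Ratios of genes with a signal near the floor are limited by it.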
